A study of Mus musculus with 8 samples.

Results

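Expression of 10 genes of the oxysterol-binding protein-like family, Osbpl1a, Osbpl2, Osbpl3, Osbpl5, Osbpl6, Osbpl7, Osbpl8, Osbpl9, Osbpl10 and Osbpl11, was followed in neocortex in which the transcription factor Bcl11a had been deleted from one cell lineage. The genes were taken by exact gene symbol from the array's annotation, and all 10 were among the 19938 genes measured, each through 1 probe set. Tissue of neocortical layers II to IV had been cut by laser from 8 mouse pups at postnatal day 2, 4 controls (Bcl11a flox/+;Emx1 IRESCre/+) and 4 mutants (Bcl11a flox/flox;Emx1 IRESCre/+), and the total RNA of each pup was read on 1 Affymetrix mouse gene array. All pups carried Cre recombinase at the Emx1 locus, which is active in the lineage of cortical excitatory neurons and much of the glia, so that the controls were heterozygous for Bcl11a where Cre acts and cells outside that lineage kept the gene. The set was chosen by its mutant against control values, so those differences, and the calls the fit across all genes gave them, are a description and not an independent test.

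The proteins of this family, often called ORPs, carry lipids between membranes that lie close together. Each has a lipid-binding domain, and several take phosphatidylinositol 4-phosphate (PI4P) back to the endoplasmic reticulum in exchange for a sterol or for phosphatidylserine delivered to another membrane. Of the founding members, Osbp and Osbp2, Osbp supplies sterol to the Golgi and related membranes. Many of the proteins are held at the endoplasmic reticulum by the VAP receptors. In neurons such transfer serves membrane that grows far from the site where its lipids are made.

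A set of 3 upstream windows is shown because the data bear on these genes in different ways. Osbpl3 and Osbpl6 are sister genes whose values moved in opposite directions, and Osbpl5, which did not pass the test, holds the window that matched the short sequence TGACCA (reverse complement TGGTCA), which the zinc fingers of Bcl11a are known to bind. Each is the 250 bases before an annotated start, from RefSeq on build GRCm38.p6, read 5′ to 3′ on the gene's strand, with any TGACCA or TGGTCA in capitals.
Osbpl3, chr6:50456171-50456420, minus strand: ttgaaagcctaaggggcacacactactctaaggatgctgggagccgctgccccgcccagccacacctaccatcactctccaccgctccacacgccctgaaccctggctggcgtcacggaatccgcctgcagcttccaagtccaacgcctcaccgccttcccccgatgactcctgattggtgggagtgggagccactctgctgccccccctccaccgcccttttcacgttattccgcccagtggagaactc
Osbpl6, chr2:76406258-76406507, plus strand: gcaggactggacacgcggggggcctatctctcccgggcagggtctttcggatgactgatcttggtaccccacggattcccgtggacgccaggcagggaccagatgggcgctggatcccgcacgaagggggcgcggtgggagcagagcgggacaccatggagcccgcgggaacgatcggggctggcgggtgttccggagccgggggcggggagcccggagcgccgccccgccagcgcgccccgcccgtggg
Osbpl5, chr7:143741964-143742213, minus strand: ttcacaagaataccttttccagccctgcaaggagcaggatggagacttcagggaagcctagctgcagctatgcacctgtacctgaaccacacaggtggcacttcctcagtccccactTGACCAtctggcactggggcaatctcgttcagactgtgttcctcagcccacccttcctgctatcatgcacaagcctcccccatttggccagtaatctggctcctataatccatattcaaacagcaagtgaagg
The table held 12 windows for 8 of the 10 genes (Osbpl1a and Osbpl10 had no entry), and 1 of the 12 contained the sequence on either strand, against 11.4% of 32851 windows of the same length. That match began 133 bases before 1 of the 3 annotated starts of Osbpl5. The sequence TTCCTAGAA, bound by Bcl6 and searched on both strands with no overlap with TGACCA, matched 0 of the 12 and 0.347% of all windows. The member windows had a median GC content of 62.8% against 52.4% over all windows. Osbpl6 also had a window at another annotated start, chr2:76498756-76499005, with a GC content of 46.4% against 74.0% in the one shown. A match is a run of letters, not a measured site, and which start was used in this tissue was not analysed here.

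Of the 10 genes, 5 differed between mutant and control layers in the fit across all genes: Osbpl1a, Osbpl3 and Osbpl9 were lower and Osbpl6 and Osbpl10 higher, by 1.24-fold to 1.43-fold. In whole tissue, fewer cells of a type that expresses a gene and less RNA per cell cannot be told apart. A gene is said here to pass, or to be called, when its Benjamini-Hochberg adjusted p over all 19938 genes was under 0.05 in limma. By that rule 4.15% of all genes were called, 1.79% lower and 2.36% higher, beside 3 lower and 2 higher of 10 here, a count that the choice of the family was made on. The values of the groups did not overlap for the same 5 genes, and for 9.25% of all genes. With each array centred on its median, the split among the members was 3 lower and 1 higher. With each gene's own variance in place of limma's moderated one, 0 of the 10 were called, and 249 genes in all, while 6 of the 10 had an unadjusted p under 0.05 in the moderated fit, beside 14% of all genes. The other 5, Osbpl2, Osbpl5, Osbpl7, Osbpl8 and Osbpl11, did not pass. The median difference of the 10 was -0.04 on the log2 scale and the median absolute difference 0.33, against 0.02 and 0.07 over all genes. Values are log2 expression, and levels of different genes are not compared, since probe sets differ in how strongly they bind. All 10 means lay above 4.31, the highest reading of 3 Y-linked genes in the pups with high Xist, which was taken as a background level.

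**Figure D1:**
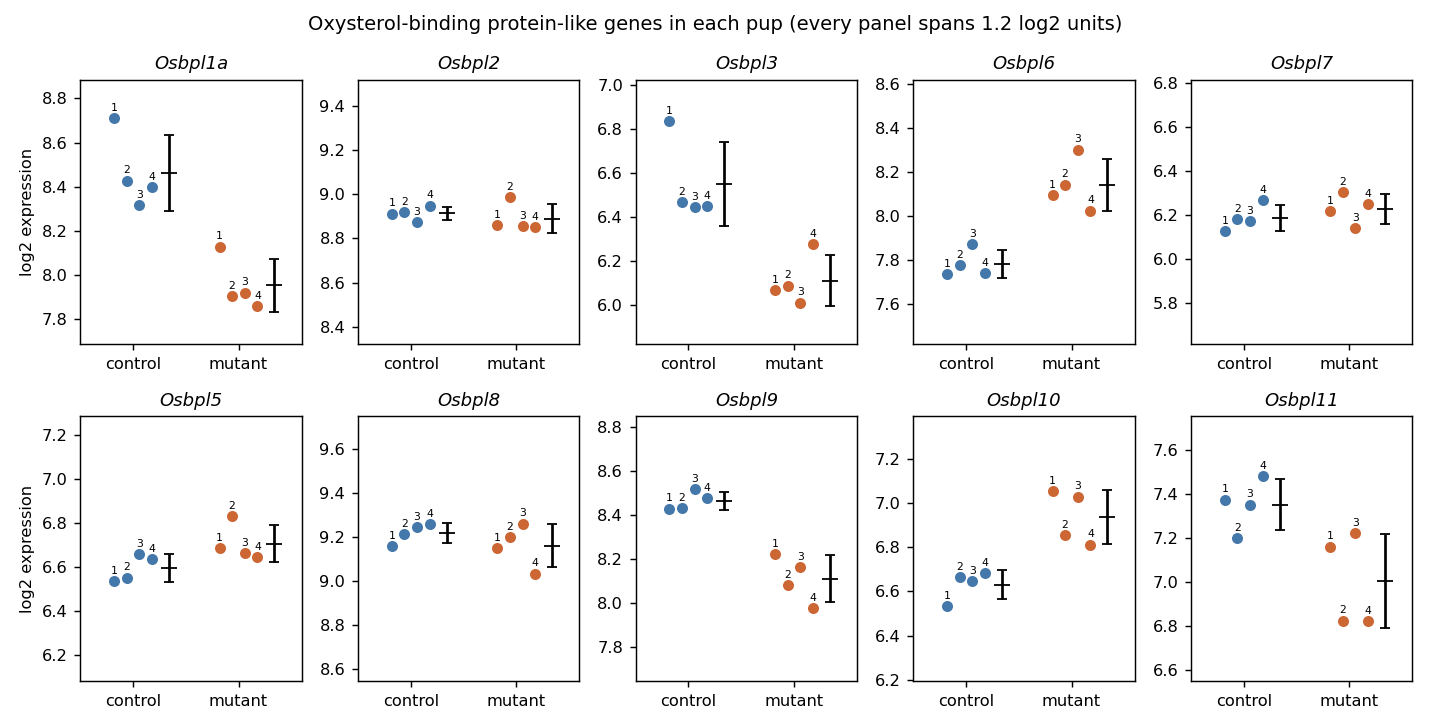
Log2 expression of the 10 genes in each of 4 control (blue) and 4 mutant (orange) pups, 1 panel per gene, each panel spanning 1.2 log2 units; small digits are replicate numbers and black bars the mean ± SD. The control and mutant points do not overlap for Osbpl1a, Osbpl3, Osbpl6, Osbpl9 and Osbpl10.

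The targeted gene had a control mean of 10.45 ± 0.13 and a mutant mean of 8.63 ± 0.21 (SD, n = 4) for Bcl11a, and 4 of 8 measured markers of cortical excitatory neurons were called, Cux2 (-1.29), Cux1 and Emx1 lower and Neurod6 (0.70) higher, all 8 being above the background level. Array medians lay between 4.83 and 4.91. Control 1 stood apart from the other controls and had the lowest array weight, 0.556. Of 9 interneuron markers, which label cells born outside the cortex and hence outside the lineage of the Cre, 2 were called lower, Npy (-1.63) and Dlx1 (-0.46). All 9 differences were below 0, and 7 (77.8%) had an unadjusted p under 0.05 in limma, all lower, against 14% of all genes. The mean log2 level of the list was 7.42 to 7.50 in controls and 7.02 to 7.09 in mutants, with 0 of the 9 at the background level. The part of this lower level in the values of the lipid transporters was not tested. Of 5 Cajal-Retzius markers, 3 had differences above 0 and 2 below: Reln fell (-0.57), and Calb2, named after its values were seen, had a difference of 0.86 (SE 0.27) that did not pass (limma adjusted p = 0.122). Calb2 read 5.38 in control 1 against 6.72 to 7.06 in the other controls, and 7.23 to 7.61 in mutants. The mean level of the Cajal-Retzius list, 5.55 to 5.93 in controls and 5.82 to 6.03 in mutants, overlapped. Reln no longer passed when control 2 (-0.48), control 3 (-0.54), control 4 (-0.56), mutant 2 (-0.48) or mutant 3 (-0.54) was left out. Of 36 markers of glia, microglia, vessels and meninges, limma called 0, with 8 (22.2%) at an unadjusted p under 0.05, all lower, against 14% of all genes. Of these 36 differences, 25 were below 0 and 11 above, and 7 of the genes had means at or below the background level. The mean log2 level of this list was 6.07 to 6.13 in controls and 5.91 to 6.02 in mutants, without overlap. The part of that shift in the values of the lipid transporters was not tested.

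Osbpl1a and Osbpl2 form one subfamily. Osbpl1a encodes the transporter that sits on late endosomes with the small GTPase Rab7 and responds to their cholesterol. It read 8.71, 8.43, 8.32 and 8.40 in controls 1 to 4 and 8.13, 7.90, 7.92 and 7.86 in mutants 1 to 4. Every mutant lay below every control, and control 1 and mutant 1 were each the highest of their group. The means were 8.46 ± 0.17 and 7.95 ± 0.12 (SD, n = 4), which is 1.43-fold lower in the mutant (log2 difference -0.51, SE 0.09, 95% interval -0.71 to -0.31), and the size stood at percentile 98.07 of all genes. Without control 1 the difference was -0.43, and the gene was still called. The probe set is annotated with 6 RefSeq transcripts, so that the long and short forms of this gene cannot be told apart. Osbpl2, which moves cholesterol to the plasma membrane, ran from 8.88 to 8.95 in controls and from 8.85 to 8.99 in mutants. The groups overlapped, with a log2 difference of -0.03 and a 95% interval of -0.16 to 0.11.

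In the subfamily of Osbpl3, Osbpl6 and Osbpl7 one gene was lower, one higher and one did not pass. Osbpl3, whose protein acts with R-Ras in cell adhesion, read 6.83, 6.47, 6.44 and 6.45 in controls 1 to 4. In mutants 1 to 4 it read 6.07, 6.09, 6.01 and 6.28. The groups did not overlap, and control 1 stood well above the other controls. The means of Osbpl3 were 6.55 ± 0.19 and 6.11 ± 0.12 (SD, n = 4), 1.36-fold lower in the mutant (log2 difference -0.44, SE 0.09, 95% interval -0.64 to -0.23). Without control 1 the difference fell in size to -0.34 and the gene was still called. The call was lost without mutant 2 or mutant 3, where the differences were -0.43 and -0.40.

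Osbpl6, a transporter of the endoplasmic reticulum and endosomes, read 7.74, 7.78, 7.87 and 7.74 in controls 1 to 4 and 8.10, 8.14, 8.30 and 8.02 in mutants 1 to 4. Every mutant lay above every control, and control 3 and mutant 3 were each the highest of their group. The means were 7.78 ± 0.06 and 8.14 ± 0.12 (SD, n = 4), which is 1.28-fold higher in the mutant (log2 difference 0.36, SE 0.07, 95% interval 0.20 to 0.52). Osbpl6 was called with each pup left out in turn, with differences of 0.31 to 0.40. Osbpl7 ran from 6.12 to 6.27 in controls and from 6.14 to 6.30 in mutants. Those ranges almost coincided, with a log2 difference of 0.04 and a 95% interval of -0.10 to 0.18.

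Osbpl5 and Osbpl8 encode the transporters anchored in the endoplasmic reticulum by their own membrane segment, which deliver phosphatidylserine to the plasma membrane against PI4P. Neither passed. Osbpl5 ran from 6.54 to 6.66 in controls and from 6.65 to 6.83 in mutants, with a log2 difference of 0.11 (95% interval -0.03 to 0.25). The highest of its 8 values was that of mutant 2, and the groups overlapped. Osbpl8 ran from 9.16 to 9.26 in controls and from 9.03 to 9.26 in mutants, with a log2 difference of -0.06 (95% interval -0.20 to 0.09).

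Osbpl9, Osbpl10 and Osbpl11 encode proteins that work in pairs: the Osbpl9 product, which exchanges lipids at contacts of the endoplasmic reticulum with the Golgi, dimerises with either of the others. Osbpl9 read 8.43, 8.43, 8.52 and 8.48 in controls 1 to 4 and 8.22, 8.08, 8.16 and 7.98 in mutants 1 to 4. The controls lay close together and every mutant was below them. The means were 8.46 ± 0.04 and 8.11 ± 0.11 (SD, n = 4), which is 1.28-fold lower in the mutant (log2 difference -0.35, SE 0.07, 95% interval -0.50 to -0.20). Osbpl9 was called with each pup left out in turn, with differences of -0.39 to -0.31.

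Osbpl10, which carries phosphatidylserine, went the other way from its partner. It read 6.53, 6.66, 6.65 and 6.68 in controls 1 to 4 and 7.05, 6.86, 7.03 and 6.81 in mutants 1 to 4. Every mutant lay above every control, with mutants 1 and 3 well above mutants 2 and 4. The means of Osbpl10 were 6.63 ± 0.07 and 6.94 ± 0.12 (SD, n = 4), 1.24-fold higher in the mutant (log2 difference 0.31, SE 0.07, 95% interval 0.15 to 0.47). Of the 5 calls this one depended most on single pups: it was lost without any 1 control (differences of 0.27, 0.32, 0.31 and 0.32 without controls 1 to 4) and without mutant 1 (0.27) or mutant 3 (0.28). Median centring (0.29), inferred sex as a covariate (0.31) and a block on replicate number (0.31) ended it too.

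Osbpl11 read 7.37, 7.20, 7.35 and 7.48 in controls 1 to 4 and 7.16, 6.82, 7.22 and 6.82 in mutants 1 to 4. Mutants 2 and 4 were far below all controls, whereas mutant 3 lay above control 2, so the groups overlapped by that pair of pups. The means were 7.35 ± 0.12 and 7.01 ± 0.21 (SD, n = 4), with a log2 difference of -0.34 (SE 0.10, 95% interval -0.56 to -0.13). This difference was about as large as that of Osbpl9, but the mutant values were more scattered and Osbpl11 did not pass. Without mutant 3 it passed, at a difference of -0.42.

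**Figure D2:**
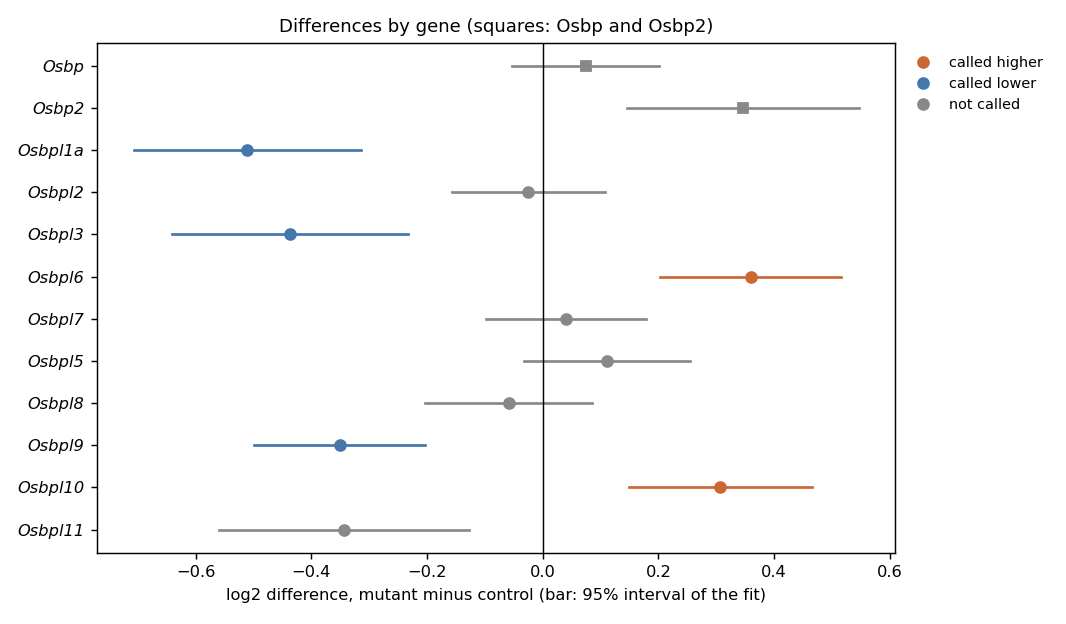
Log2 difference, mutant minus control, of each gene with its 95% interval from the fit across all genes, for the 10 members (circles) and for Osbp and Osbp2 (squares); blue was called lower, orange higher, grey not called. Points of one subfamily lie far apart for Osbpl3 (-0.44) and Osbpl6 (0.36) and for Osbpl10 (0.31) and Osbpl11 (-0.34), and closer to 0 for Osbpl5 (0.11) and Osbpl8 (-0.06).

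**Figure D3:**
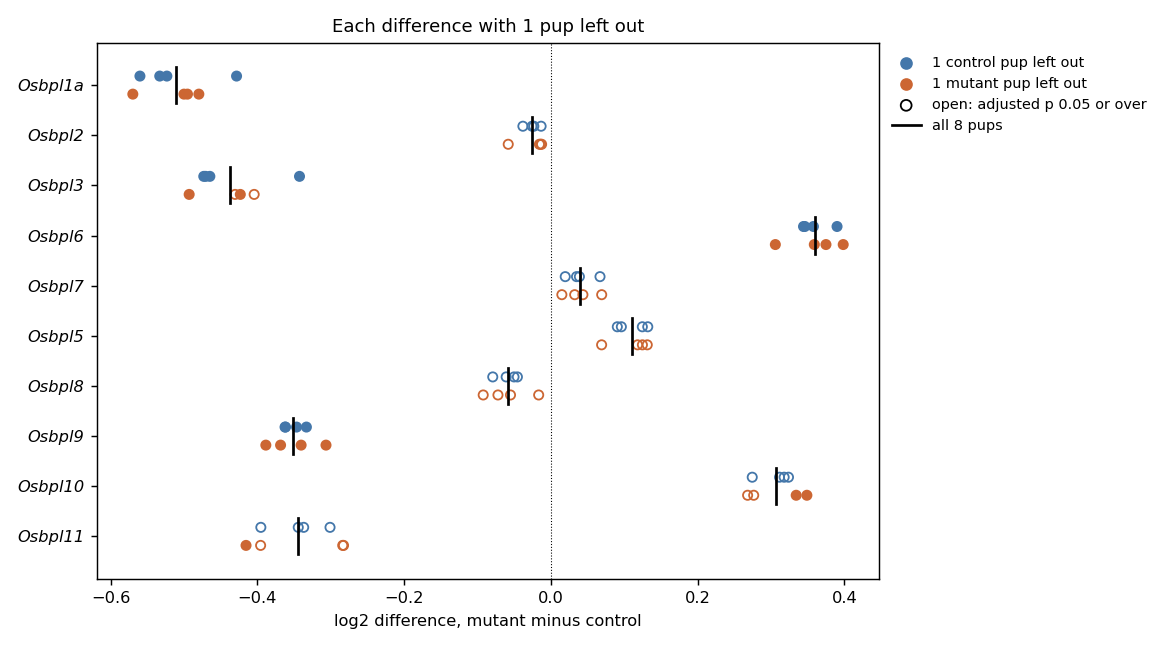
Log2 difference of each gene with all 8 pups (black bar) and with 1 pup left out (blue points, a control; orange points, a mutant); filled points passed the adjusted p of 0.05 and open points did not. The points of Osbpl1a, Osbpl6 and Osbpl9 are all filled, while those of Osbpl10 are mostly open, between 0.27 and 0.35.

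Osbp and Osbp2, the family members outside the set of 10, were tested in the same fit. Osbp ran from 8.40 to 8.47 in controls and from 8.46 to 8.55 in mutants. It did not pass (log2 difference 0.07, SE 0.06, limma adjusted p = 0.677, exact two-sided permutation p = 0.0571). Osbp2, which encodes ORP4, read 7.28, 7.44, 7.61 and 7.66 in controls 1 to 4 and 7.66, 7.95, 7.93 and 7.85 in mutants 1 to 4. The groups of Osbp2 overlapped only where mutant 1 met control 4. Its log2 difference of 0.35 (SE 0.09, limma adjusted p = 0.058) missed the threshold, and its exact two-sided permutation p was 0.0571, where 4 against 4 arrays cannot go below 0.0286. The call was gained without control 4 (0.40) or without mutant 1 (0.41).

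Most of the genes that work with these transporters did not pass. Of 90 measured partner genes in 8 lists, 2 rose, 1 fell and 87 did not pass, which is 3.33% against 4.15% of all genes, and the median difference was 0.01 against 0.02. The gene that fell was Esyt2, an extended synaptotagmin that tethers the endoplasmic reticulum to the plasma membrane and moves lipids between them. It read 7.85, 7.72, 7.99 and 7.83 in controls 1 to 4 and 7.46, 7.52, 7.47 and 7.52 in mutants 1 to 4. Every mutant was below every control, with means of 7.85 ± 0.11 and 7.50 ± 0.03 (SD, n = 4), a 1.28-fold fall (log2 difference -0.35, SE 0.07, limma adjusted p = 0.0082, exact permutation p = 0.0286). Esyt2 was called with each pup left out in turn (adjusted p at most 0.0279).

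Stard5, a START-domain carrier of sterol and bile acids in the same list of 20 contact-site and cytosolic lipid transporters, rose from 5.54 ± 0.19 to 5.95 ± 0.17 (SD, n = 4; log2 difference 0.41, SE 0.10, limma adjusted p = 0.0449). Its lowest mutant, at 5.74, lay just above its highest control, at 5.71. The call of Stard5 was lost without control 2 (0.35), control 3 (0.36), mutant 1 (0.39), mutant 2 (0.34) or mutant 4 (0.43). Abcg1, a transporter that exports sterols from cells and a target of the LXR receptors, rose from 6.14 ± 0.14 to 6.45 ± 0.07 (SD, n = 4; log2 difference 0.31, SE 0.08, limma adjusted p = 0.0414). Its highest control, at 6.34, lay close to its lowest mutant, at 6.40. Abcg1 was the only call in its list of 11 measured genes of oxysterol enzymes, LXR receptors and sterol efflux. In that list 4 differences were above 0 and 7 below, with a median of -0.01, and 10 genes did not pass. The call of Abcg1 was lost with any 1 pup left out other than control 4, with differences of 0.26 to 0.33. The count of partner genes called higher was 1 without control 1, mutant 1 or mutant 3, 0 without control 2 or 3 or mutant 2 or 4, and 3 without control 4.

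**Figure D4:**
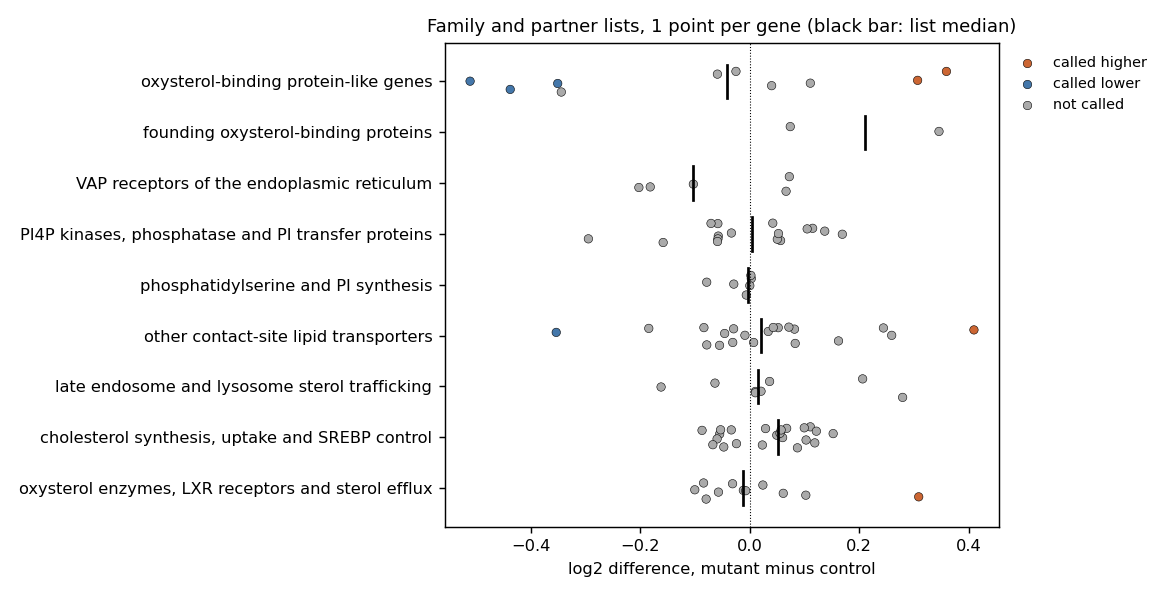
Log2 difference, mutant minus control, of each gene (1 point) of the family and of the 8 partner lists; blue was called lower, orange higher, grey not called, and the black bar is the list's median. The median absolute difference of the partner genes was 0.06, against 0.07 over all genes. The coloured partner genes are Esyt2, Stard5 and Abcg1, and the grey Osbp2 (0.35) and Efr3a (-0.30) lie about as far out as Abcg1 (0.31).

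Of all 90 partner genes, 13 (14.4%) had an unadjusted p under 0.05 in limma, 9 higher and 4 lower, against 14% of all genes. The 6 other lists, which include Osbp and Osbp2, were grouped because they held no call. The 0 of 59 genes called there follows from that choice, and 7 of the 59 (11.9%) had an unadjusted p under 0.05, 5 higher and 2 lower. In the list of 5 genes of VAP receptors and Mospd proteins, the differences furthest from 0 were -0.20 for Mospd1 and -0.18 for Vapa (limma adjusted p = 0.422 for both). Without control 1 the difference of Mospd1 was -0.12. Vapa was close to its controls in mutants 1 and 3 (9.50 and 9.45, against 9.44 to 9.52) and lower in mutants 2 and 4 (9.07 and 9.16). Of 16 genes that make, remove or supply PI4P, Efr3a had a difference of -0.30 and Efr3b one of 0.17 (limma adjusted p = 0.109 and 0.324); their products anchor the plasma membrane kinase that makes PI4P. Of 6 genes of phosphatidylserine and phosphatidylinositol synthesis, Ptdss2 (-0.08) and Cds1 (-0.03) were furthest from 0. Of 8 genes of sterol handling in late endosomes and lysosomes, Lipa, the lysosomal acid lipase, differed by 0.28 and Scarb2 by 0.21 (limma adjusted p = 0.229 and 0.248). Of 22 measured genes of cholesterol synthesis, uptake and their SREBP control, Hsd17b7 (0.15) and Sc5d (0.12) were furthest from 0, and the list's median was 0.05.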

How the data were processed

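The deposited table gave 1 log2 value per probe set and array for 35556 probe sets. Per the labels, the authors used BRB-ArrayTools; background correction, normalization, summarisation and log base were not stated in the labels, and the values, with like array medians, were taken as log2 and already normalized. Another base would change fold changes and not the tests. Of the probe sets, 21789 had 1 gene symbol in the platform annotation, 1621 several and 12146 none; the brightest of a gene's one-symbol probe sets was kept, with no filter on dim genes. The genotypes were compared in limma 3.58.1 (R 4.3.3), with genotype alone in the model, moderated variances (6.91 prior degrees of freedom) and two-sided tests. Single values were also tested by an exact permutation test over 70 arrangements. The number of arrays limits the precision (median SE 0.0766 over all genes, 0.0703 over the members). On simulated data for the mutant against control comparison (19938 genes), 23 of 50 genes shifted by 0.3 (log2) were recovered, 47 of 50 changed by 0.5, 50 of 50 changed by 1 and 50 of 50 changed by 2, with 9 false calls.

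The members and lists were chosen with earlier results of these data known. The text names the 10 members, Osbp, Osbp2, Bcl11a, up to 4 called genes of each partner list (or the 2 furthest from 0), and up to 2 called genes of each marker list; Cux1 and Emx1 were added after their values were seen. Some listed partner genes (8 of 98) were not analysed here. Sequences came from RefSeq tables of GRCm38.p6; the array annotation names no build. Alternatives covered normalization, dim genes, probe sets, variances, array weights, a replicate block, inferred sex, the threshold and each pup left out.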

Additional observations from a re-analysis of the deposited data

Results flagged for a closer look

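In each of the 31 named genes the 4 values of each genotype were checked for a value far from the other 3, by Dixon's test at the 95% level, which flags about 1 in 20 groups by chance. It picked out 4 of 62 groups. Osbpl2 read 8.99 in mutant 2 against 8.85 to 8.86 in the other mutants, and Osbpl3 read 6.83 in control 1 against 6.44 to 6.47 in the other controls. Among the partner genes, Mospd1 read 9.43 in control 1 against 9.10 to 9.13, and Hsd17b7 read 7.83 in mutant 3 against 7.74 in the others.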

How the results depend on the processing

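Each member kept the sign of its difference under all 19 alternatives, except Osbpl7, which was at -2e-04 after quantile normalization. Without variance moderation 0 members were called lower and 0 higher, 0 partner genes were called in either direction and 249 genes in all. At an adjusted p under 0.01, 2 members were lower (Osbpl1a and Osbpl9) and 0 higher. In that setting 1 partner gene was lower (Esyt2), 0 were higher and 447 genes were called. Osbpl3, Osbpl6 and Osbpl10 lost their calls there (limma adjusted p = 0.0169, 0.0112 and 0.0309). Members called higher numbered 1 after median centring, with the replicate block and with inferred sex, Osbpl10 being lost each time. Partner genes called higher numbered 1 after median centring and with array weights, and 0 with inferred sex. Abcg1 lost its call in 14 of 19 alternatives, among them trend and robust variances (adjusted p = 0.0512), where Osbp2 gained one and the count stayed at 2. With 1 pup left out, 1 to 2 members were called higher and 2 to 3 lower, 0 to 3 partner genes higher and 1 lower, and 584 to 814 genes in all. Osbp2 was called without the dimmest 30% or 50% of genes, with trend and robust variances and with the replicate block (adjusted p = 0.0475, 0.0393, 0.0413 and 0.0175). The causes were not tested.

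The main fit did not take the replicate numbers as pairs. Deviations from the group means correlated at 0.109, 0.056, 0.295 and 0.149 for numbers 1 to 4, all positive and lowest for number 2. Of 8 arrays, 6 correlated best with their own number. Whether the numbers pair the pups was not settled by these values, so the fit with a replicate block is given beside the main one. With the replicate block 987 genes were called, 2 partner genes were lower (Efr3a was gained, adjusted p = 0.0342), 2 were higher, and Abcg1 lost its call while Osbp2 gained one. Apart from these and Osbpl10, it changed no call of a named gene.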
